A study of Mus musculus with 4 samples.

Results

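The genes described here encode the receptors for the neurotransmitters GABA and glutamate, 41 of the 20722 autosomal protein-coding genes in GENCODE M21. They were taken by symbol: the GABA-A subunit genes (Gabra, Gabrb, Gabrg, Gabrd, Gabrp and Gabrr), the GABA-B genes Gabbr1 and Gabbr2, the AMPA (Gria), kainate (Grik) and NMDA (Grin) receptor genes and the metabotropic glutamate receptor genes (Grm). Gria3, Gabra3, Gabre and Gabrq match the symbols but are X-linked and were left out. The receptors were chosen by measured values of these same libraries, namely which peaks had been seen at their promoters, so the counts below are a description and carry no test. ChIP-seq maps where a protein or histone mark sits on DNA, and here it was done on mouse colorectal tumour organoids (clone 3, passage 14), from tumours induced with azoxymethane and dextran sulfate sodium (AOM/DSS). There was 1 library each for KMT9alpha, for KMT9beta and for H4K12me1, the single methyl group on lysine 12 of histone H4, so no value has a replicate check, and an input library is not analysed here. The labels mention both vehicle and 1 µM tamoxifen but not which of them these organoids were given, and no genotype, so nothing is compared between treatments or genotypes. The organoids are 1 clone, and their depth of sequencing is unknown.

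GABA is the main inhibitory and glutamate the main excitatory transmitter of the brain, and in the gut their receptors are best known from enteric neurons. GABA-A receptors are chloride channels assembled from several subunits, AMPA, kainate and NMDA receptors are cation channels, and GABA-B and metabotropic glutamate receptors signal through G proteins. KMT9alpha (from N6amt1) is the catalytic subunit of the methyltransferase KMT9 and KMT9beta (from Trmt112) its partner, and together they are known to write H4K12me1. A peak at a promoter shows where the antibody enriched DNA, and does not show whether the gene is expressed.

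Promoters of the receptor genes carried KMT9alpha, KMT9beta and H4K12me1 in 6 combinations, and 1 promoter of each is shown so that the sequences can be set beside the peaks described below. Each is the RefSeq sequence on GRCm38.p6, from 250 bases before to 50 after the RefSeq start, read 5′ to 3′ on the strand of the gene, with CpG dinucleotides in capitals. Of the 41 genes, 29 had such a sequence. Within a combination the gene shown has the highest H4K12me1 score, or else the highest KMT9alpha score, among those with a sequence, the KMT9beta-only gene was taken by its KMT9beta score, and the gene without peaks is the first in the alphabet. Grm3, with all 3, spans chr5:9725303-9725602 on the minus strand. Gabbr2, with KMT9beta and H4K12me1, spans chr4:46991665-46991964 on the minus strand. Gabra4, with both subunits and no H4K12me1, spans chr5:71658259-71658558 on the minus strand. Grik3, with KMT9beta alone, spans chr4:125490446-125490745 on the plus strand. Grik2, with H4K12me1 alone, spans chr10:49788705-49789004 on the minus strand. Gabra2, with none, spans chr5:71095800-71096099 on the minus strand.
Grm3: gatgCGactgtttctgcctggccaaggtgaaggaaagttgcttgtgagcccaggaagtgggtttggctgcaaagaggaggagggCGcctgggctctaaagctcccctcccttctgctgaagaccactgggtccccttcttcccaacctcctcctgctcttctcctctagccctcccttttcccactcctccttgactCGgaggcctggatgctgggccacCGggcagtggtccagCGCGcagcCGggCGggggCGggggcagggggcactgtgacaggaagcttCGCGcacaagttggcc
Gabbr2: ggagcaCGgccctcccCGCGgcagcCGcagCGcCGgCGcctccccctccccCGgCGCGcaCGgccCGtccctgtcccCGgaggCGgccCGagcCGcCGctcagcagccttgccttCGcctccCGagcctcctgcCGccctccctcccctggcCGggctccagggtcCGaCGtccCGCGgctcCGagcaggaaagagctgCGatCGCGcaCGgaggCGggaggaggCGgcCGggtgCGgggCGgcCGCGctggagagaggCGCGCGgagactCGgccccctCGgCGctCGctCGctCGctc
Gabra4: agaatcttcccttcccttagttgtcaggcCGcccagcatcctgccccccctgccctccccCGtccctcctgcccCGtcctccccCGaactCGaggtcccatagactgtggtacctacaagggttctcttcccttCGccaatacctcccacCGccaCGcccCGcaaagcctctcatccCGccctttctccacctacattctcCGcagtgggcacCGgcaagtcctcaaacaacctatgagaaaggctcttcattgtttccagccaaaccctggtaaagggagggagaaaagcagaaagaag
Grik3: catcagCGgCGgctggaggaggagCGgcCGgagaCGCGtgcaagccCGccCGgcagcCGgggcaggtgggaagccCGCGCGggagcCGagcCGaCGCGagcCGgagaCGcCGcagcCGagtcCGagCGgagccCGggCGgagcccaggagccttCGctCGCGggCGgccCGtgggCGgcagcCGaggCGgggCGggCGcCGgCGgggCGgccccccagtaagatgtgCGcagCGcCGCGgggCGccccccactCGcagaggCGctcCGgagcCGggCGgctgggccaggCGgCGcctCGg
Grik2: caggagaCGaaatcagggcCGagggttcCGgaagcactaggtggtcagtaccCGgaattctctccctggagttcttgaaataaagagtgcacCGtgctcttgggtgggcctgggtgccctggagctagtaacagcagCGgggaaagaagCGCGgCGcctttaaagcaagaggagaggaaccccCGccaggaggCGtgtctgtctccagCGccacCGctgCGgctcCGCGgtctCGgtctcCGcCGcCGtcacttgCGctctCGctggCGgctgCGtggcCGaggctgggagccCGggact
Gabra2: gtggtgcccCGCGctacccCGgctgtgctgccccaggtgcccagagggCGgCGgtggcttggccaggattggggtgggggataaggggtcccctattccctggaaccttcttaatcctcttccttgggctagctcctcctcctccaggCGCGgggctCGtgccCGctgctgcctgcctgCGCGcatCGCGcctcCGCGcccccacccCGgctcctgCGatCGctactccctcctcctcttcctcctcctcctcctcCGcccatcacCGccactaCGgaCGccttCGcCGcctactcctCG

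The 6 sequences differed in CpG count and in how many of their bases lay inside peaks. Any link between these was not tested, since most of the 6 were picked by score. The Grm3 sequence, which lay inside a KMT9beta peak and an H4K12me1 peak over all 300 bases and inside the KMT9alpha peak over 141, held 11 CpG, the fewest of the 6. Gabra2 held 25 CpG and no peak, close to the 26 of Grik2, which reached into an H4K12me1 peak at its downstream end. Grik3 held 50 CpG and lay inside a KMT9beta peak over all 300 bases. Gabbr2 held 46, and only 24 of its bases, at the downstream end, reached into its H4K12me1 peak, which runs on into the gene. Gabra4 held 12, with 258 bases inside KMT9beta, and its KMT9alpha peak lay just downstream of the sequence shown.

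Fewer receptor genes than autosomal genes, by share, had a promoter peak of each library. A promoter here reaches 1 kb to each side of a protein-coding transcript's start, every such start of a gene counts, and a peak is counted when it shares 1 bp or more with it. KMT9alpha was found at 11 of the 41 receptor genes (26.8%, exact 95% interval 14.2 to 42.9), against 55.8% of all autosomal genes. KMT9beta was found at 20 (48.8%, 32.9 to 64.9), against 68.3%, and H4K12me1 at 13 (31.7%, 18.1 to 48.1), against 47.4%. The intervals are exact Clopper-Pearson intervals and cover counting error over genes only. They are not tests, because the genes were chosen by these values and some of them share peaks. No peak of any library was called at 20 receptor promoters (48.8%), against 27.1% of autosomal genes.

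The combinations that include KMT9alpha had lower shares in receptor genes than in autosomal genes, and the other combinations with a peak had higher ones. Most of these counts are small, and no test was run on them. All 3 were present at 7 receptor genes (17.1%, 7.15 to 32.1), against 37.4% of autosomal genes. Both subunits without H4K12me1 were present at 4 (9.76%, 2.72 to 23.1), against 16.1%. KMT9beta with H4K12me1 but without KMT9alpha was present at 5 (12.2%, 4.08 to 26.2), against 7.06%. KMT9beta alone was present at 4 (9.76%, 2.72 to 23.1), against 7.8%, and H4K12me1 alone at 1 (2.44%, 0.0617 to 12.9), against 2.21%. KMT9alpha alone and KMT9alpha with H4K12me1 were found at 0 of 41 (upper limit 8.6%), against 1.63% and 0.714%. KMT9beta was present at all 11 receptor genes with KMT9alpha, near the share in autosomal genes (95.8%). Of the 20 receptor genes with KMT9beta, 9 had no KMT9alpha (45.0%), against 21.8% of autosomal genes with KMT9beta. When each list was limited to its 26146 highest-scoring peaks, KMT9beta was found at 10 receptor genes (24.4%, against 50.6%), H4K12me1 at 6 (14.6%, against 30.5%) and this pair without KMT9alpha at 1, Grin2c (2.44%, against 2.33%). KMT9alpha was found at 7 (17.1%, against 53.0%) with only the most upstream start of each gene, and at 2 (4.88%, against 50.4%) with peaks at or above the median score.

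**Figure D1:**
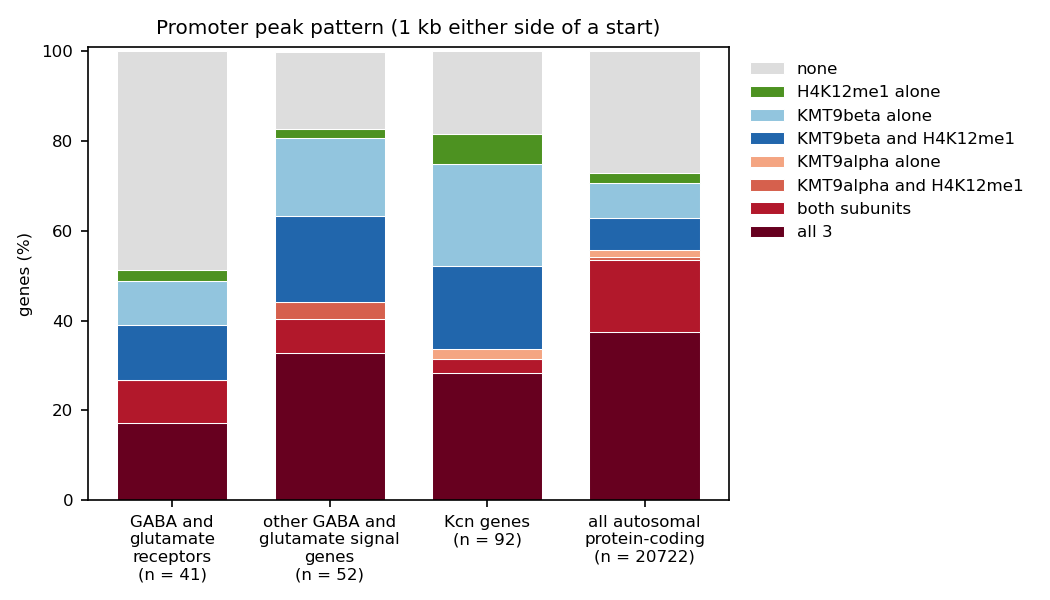
Share of genes (%, vertical axis) with each combination of promoter peaks, for the 41 receptor genes, 52 other GABA and glutamate signalling genes, 92 potassium channel genes (symbols beginning with Kcn) and 20722 autosomal protein-coding genes. The grey block without any peak is 48.8% of the receptor genes, against 17.3%, 18.5% and 27.1% of the other groups.

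Among the GABA-A receptor genes, 6 of 16 had a promoter peak, and none had all 3. Of the alpha subunit genes, which help form the GABA binding site, Gabra4 carried both subunits (KMT9alpha score 179.23, KMT9beta 61.45) and Gabra5 carried KMT9beta (147.46) and H4K12me1 (73.99). The score is the authors' own and the sources used here do not define it, so it is read only within 1 list: 179.23 is at percentile 17.9 of the KMT9alpha list, and 147.46 at percentile 76.8 of the KMT9beta list. Gabra2 and Gabra6 had no promoter peak. Of the beta subunit genes, Gabrb1 overlaps the start of Gabra4 on the opposite strand, shares its KMT9alpha peak (chromosome 5, 71657566 to 71658189) and has a KMT9beta score of 77.78. The KMT9alpha counts of these neighbours are thus 1 peak counted at 2 genes. Gabrb2 had none.

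The gamma subunit genes Gabrg1 and Gabrg3 had no promoter peak. A gamma subunit is the partner that gives most synaptic GABA-A receptors their sensitivity to benzodiazepines. Gabrd, whose delta subunit is found in receptors outside synapses, carried KMT9beta (73.0) and H4K12me1 (73.51), both near the middle or below it in their lists (percentiles 36.5 and 37.0). Gabrp, whose pi subunit is known from epithelia and the uterus, had no promoter peak, although a KMT9beta peak lay 3.6 kb from its nearest start. Of the rho subunit genes, known from the retina, Gabrr2 carried KMT9beta alone (72.71) and Gabrr1 and Gabrr3 carried none.

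Both GABA-B receptor genes had promoter peaks, and they differed in KMT9alpha. The products of Gabbr1, which binds GABA, and Gabbr2, which couples to the G protein, work as a dimer. Gabbr1 carried all 3, with a KMT9alpha score of 3100, a KMT9beta score of 129.57 and an H4K12me1 score of 78.98. Gabbr2 carried KMT9beta (75.17) and H4K12me1 (321.12, percentile 98.3) without KMT9alpha. The H4K12me1 score of Gabbr2 was the highest of the 13 receptor genes with that mark.

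**Figure D2:**
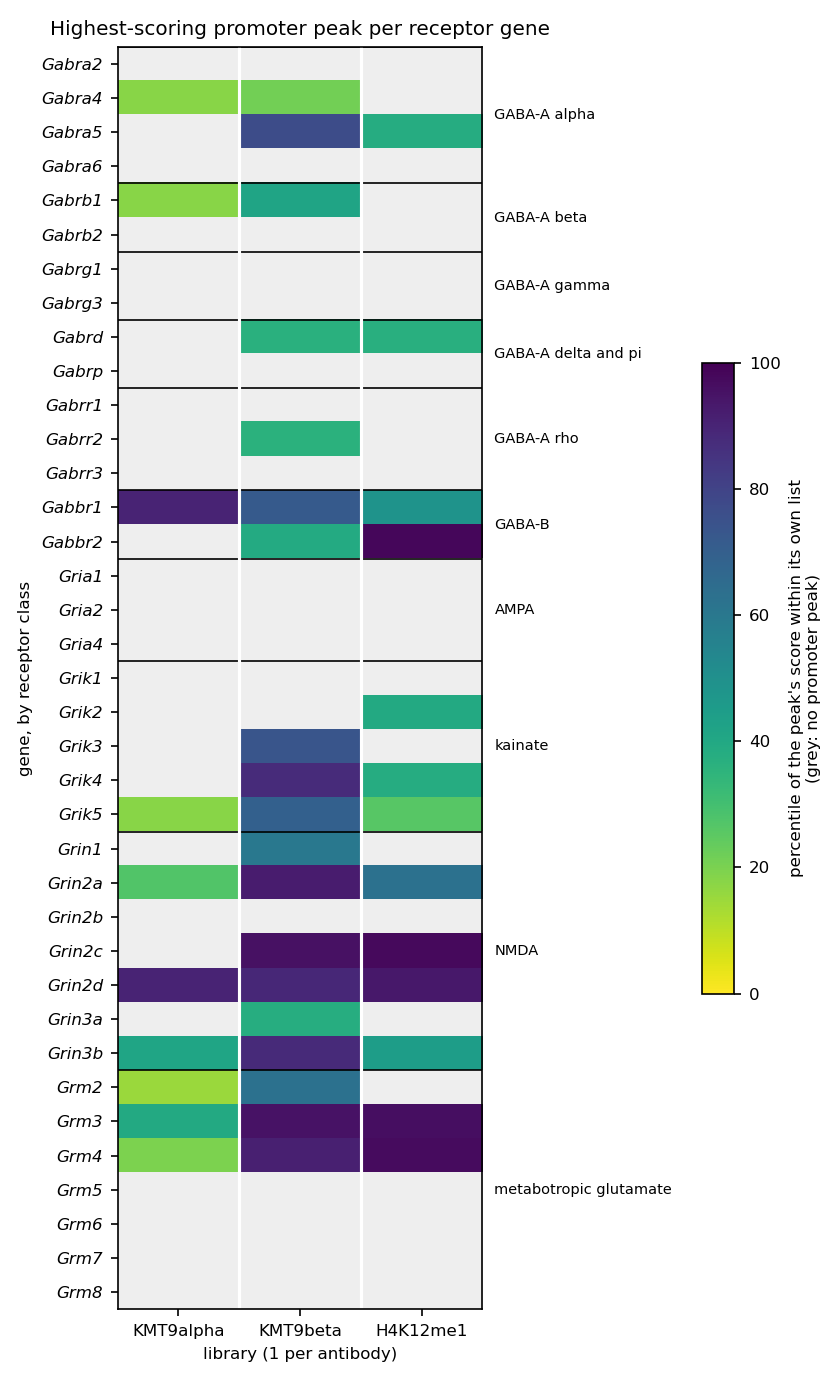
Highest-scoring promoter peak of 37 receptor genes (rows, by receptor class) in each library (columns), coloured by the percentile of its score within its own list, with grey for no promoter peak. Grey rows fill the AMPA class, and the darkest cells lie at Gabbr2, Grin2c, Grin2d, Grm3 and Grm4.

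All 3 autosomal AMPA receptor genes lacked promoter peaks. Gria1, Gria2 and Gria4 encode pore-forming subunits of the receptor that carries fast excitatory transmission. The kainate receptor genes, whose products act on both sides of the synapse, were mixed: each of the 5 had a different outcome. Grik5 carried all 3 (178.94, 122.57 and 68.68 for KMT9alpha, KMT9beta and H4K12me1) and Grik4 carried KMT9beta (218.45) and H4K12me1 (73.95). Grik3 had KMT9beta alone (136.31), Grik2 had H4K12me1 alone (74.45) and Grik1 had none.

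NMDA receptor genes had KMT9beta at 6 of 7 promoters, the largest share among the classes with more than 2 genes. The autosomal share was 68.3%, and 7 genes are too few to tell the class from it. Both GABA-B genes also had KMT9beta. Grin2d, a GluN2 subunit gene, carried all 3, with KMT9alpha at 3100, KMT9beta at 231.27 and H4K12me1 at 193.81. Grin2a, the GluN2A gene, carried 198.11, 282.14 and 89.37, and Grin3b, which encodes a glycine-binding subunit, 246.85, 219.82 and 76.62. Grin2c carried KMT9beta (362.77, percentile 95.7) and H4K12me1 (272.7, percentile 97.3) without KMT9alpha, and its KMT9beta score was the highest of the 41 genes. Grin1, which encodes the obligatory subunit, had KMT9beta alone (102.05), as had Grin3a (74.09). Grin2b had no promoter peak.

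Of the 8 metabotropic glutamate receptor genes, the 3 with peaks are all of the inhibitory kind, coupled to Gi proteins. Grm3 carried all 3 (238.38, 346.24 and 243.93) in the same stretch at its only start. Grm4 carried 181.67, 263.23 and 263.72, and Grm2 carried KMT9alpha (175.54) and KMT9beta (107.11) without H4K12me1. Grm5, coupled to Gq, had none, and neither had Grm6, Grm7 and Grm8, which are also coupled to inhibitory G proteins. Over all classes, KMT9beta was found at 12 of 23 glutamate receptor genes and 8 of 18 GABA receptor genes, KMT9alpha at 7 and 4, and H4K12me1 at 9 and 4. Among 31 channel genes, KMT9beta was found at 15, KMT9alpha at 7, H4K12me1 at 9 and all 3 at 4. Among 10 genes of G protein coupled receptors, the counts were 5, 4, 4 and 3.

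Where a receptor gene had several kinds of peak, they mostly lay at the same start. No autosomal share is given for this, and for Gabrd, Grik5 and Grm3, with only 1 start each, the outcome was fixed. KMT9beta and H4K12me1 overlapped each other at all 5 genes with this pair and no KMT9alpha (Gabra5, Gabrd, Gabbr2, Grik4 and Grin2c). Both subunits overlapped at all 4 genes with both and no H4K12me1, but Gabra4 and Gabrb1 share the same overlapping peaks. Of the 7 genes with all 3, the peaks lay at the same start in 6, the exception being Grin3b. In Grik5, counted among the 6, no peak overlapped another. KMT9alpha overlapped KMT9beta in 6 of these 7 and H4K12me1 in 3, namely Grin2a, Grin2d and Grm3. By peak, 3 of the 10 KMT9alpha peaks at receptor promoters overlapped H4K12me1, against 62.0% at autosomal promoters, and 9 of 10 overlapped KMT9beta, against 93.1%. Of the 17 H4K12me1 peaks, 3 overlapped KMT9alpha (autosomal promoters 66.2%) and 13 overlapped KMT9beta (86.9%).

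Some calls rest on the edge of the 1 kb window. Just inside were the KMT9alpha peak of Grik5, whose nearer end lay 988 bp from the start, the H4K12me1 peak of Grik4 at 970 bp, the KMT9beta peak of Gabbr2 at 922 bp and the H4K12me1 peak of Gabbr1 at 694 bp. Just outside, with nearer ends at -1061 and -1123 bp relative to a start (upstream negative), lay a KMT9beta peak of Grm4 and an H4K12me1 peak of Gabbr2, genes that already have that library at the promoter. For genes that lack a library at the promoter, the nearest of its peaks were an H4K12me1 peak 2.59 kb from Grm2, a KMT9beta peak 3.6 kb from Gabrp, a KMT9beta peak 4.91 kb from Grm6 and an H4K12me1 peak 5.64 kb from Grin1. Widening the window to 2 kb left every receptor gene in its combination.

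**Figure D3:**
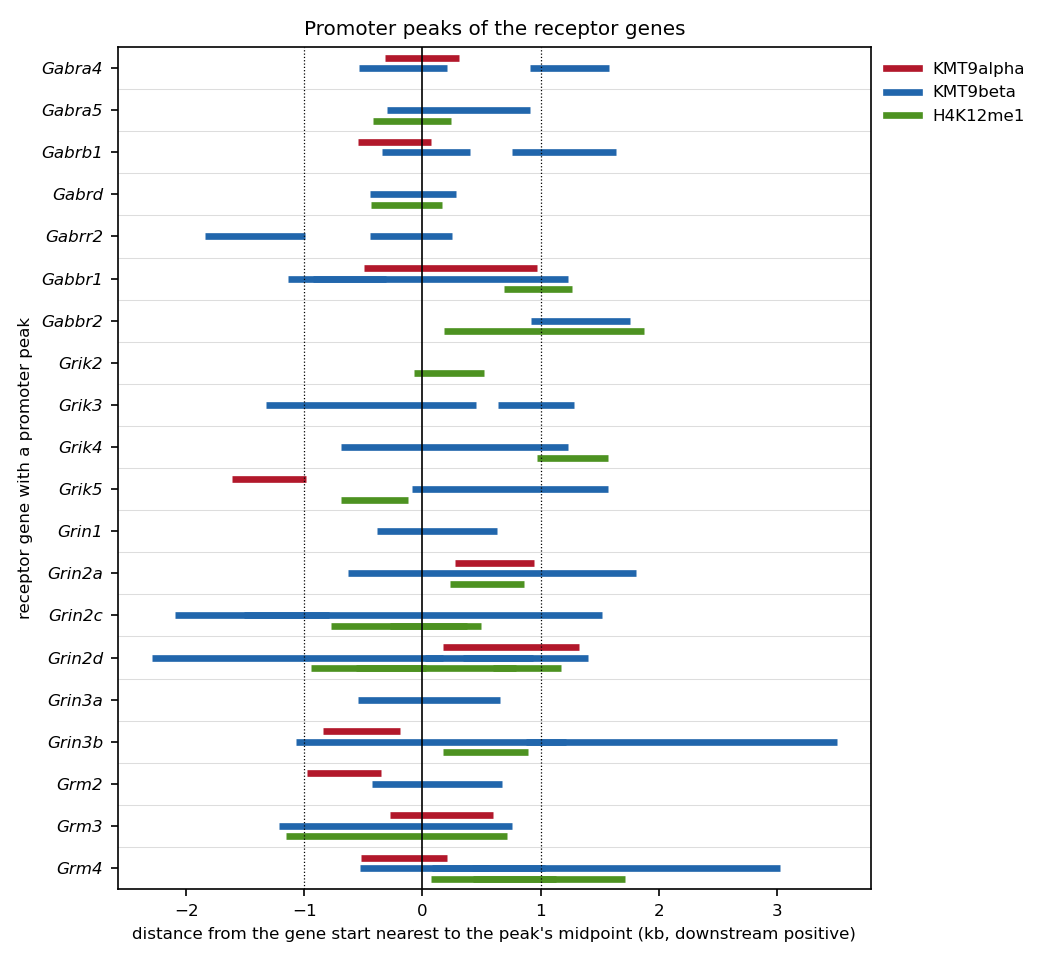
Promoter peaks of 20 receptor genes, drawn as bars from end to end by distance (kb) from the gene start nearest to the peak's midpoint, downstream positive, with KMT9alpha in red, KMT9beta in blue and H4K12me1 in green. Dotted lines mark the 1 kb window, and at Grin2a, Grin2d and Grm3 the red and green bars overlap.

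KMT9alpha peaks at receptor promoters were low and narrow for that list. The highest KMT9alpha score per gene had a median of 181.67 over the 11 receptor genes with such a peak, against 2701.59 over 11560 autosomal genes. Gabbr1 and Grin2d, at 3100, reached the upper end of the scale, which 46.2% of the autosomal genes reached or passed. The other 9 lay between 175.52 and 246.85. A score under 250, a limit set after these values had been seen, was found at 9 of 11 receptor genes (81.8%), against 7.07% of autosomal genes with a KMT9alpha peak. Peak width had a median of 662 bp at receptor promoters, against 1282 bp at autosomal promoters.

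The other lists differed less. The median of the highest score per gene was 126.07 for KMT9beta over 20 receptor genes, against 207.21, and 78.98 for H4K12me1 over 13, against 104.14. H4K12me1 scores fell into a low and a high part, with 8 genes from 68.68 to 89.37 and the other 5, Grin2d, Grm3, Grm4, Grin2c and Gabbr2, from 193.81 to 321.12.

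**Figure D4:**
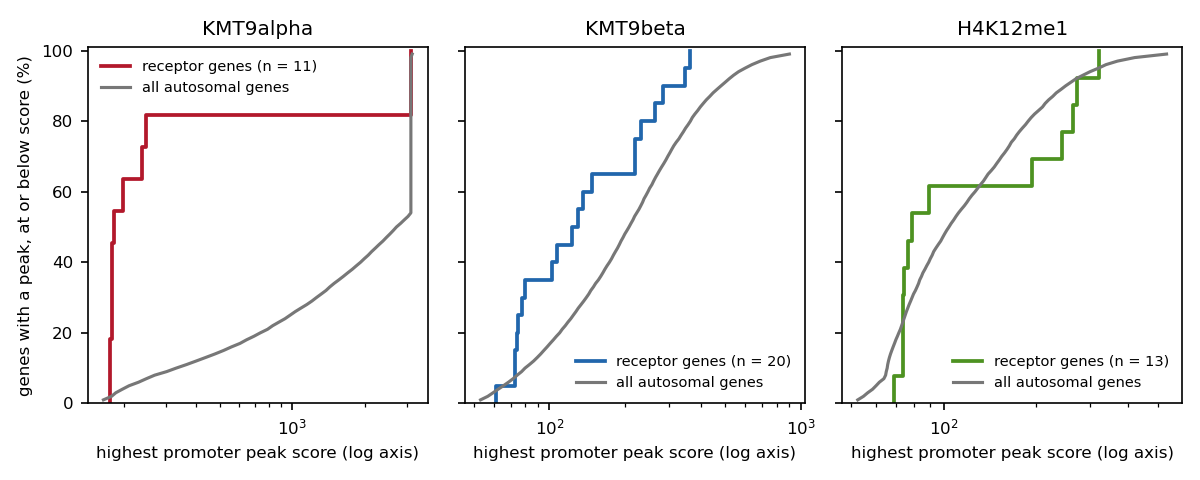
Percentage of genes with a promoter peak (vertical axis) whose highest score lies at or below the score on the horizontal log axis, for receptor genes (coloured steps, n = 11, 20 and 13) and all autosomal genes (grey line). In the KMT9alpha panel 9 of 11 receptor genes lie below 250 and the other two at 3100.

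The 20 receptor genes without a promoter peak ranged widely in their distance to the nearest one. From their starts the nearest KMT9alpha peak lay 22.8 to 1040 kb away (median 205 kb), the nearest KMT9beta peak 3.6 to 363 kb away (median 58.1 kb) and the nearest H4K12me1 peak 8.92 to 469 kb away (median 73.8 kb). Within the gene, 14 of the 20 had KMT9beta, 9 had H4K12me1 and 2, Gria2 and Grik1, had KMT9alpha. The shares over autosomal genes were 52.0%, 43.1% and 20.7%. These 20 genes are long, with a median of 174 kb against 17.6 kb, and the counts are not matched for length. For 6 genes, among them Gabra2, Gabra6, Gabrb2 and Grm7, no peak of any library touched the promoter or the gene.

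Peak density differed between GABA-A gene clusters. The cluster of Gabrg1, Gabra2, Gabra4 and Gabrb1 on chromosome 5 (70750047 to 72150037) had 1 KMT9alpha, 10 KMT9beta and 7 H4K12me1 peaks, or 0.714, 7.14 and 5.0 per Mb against 23.5, 56.4 and 42.9 on the chromosome, whose first part is dense in peaks and also holds Grm3. The rho subunit genes Gabrr2 and Gabrr1 on chromosome 4 had 0 KMT9alpha, 4 KMT9beta and 1 H4K12me1 peak in 0.103 Mb, where KMT9beta, at 39.0 per Mb, was close to the 40.1 of the chromosome, and H4K12me1 was at 9.75 against 24.4.

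The CpG content of receptor promoters was near that of autosomal promoters, and its part in the counts was not tested. The ratio of observed to expected CpG was taken over the 2 kb window of the start where it is highest. Its median was 0.551 over the 41 receptor genes, against 0.518 over autosomal genes. Receptor genes had a median of 3.0 starts, against 2.0, so their highest ratio was taken from more starts. With the autosomal genes split into 5 equal classes by this ratio, the receptor genes numbered 1, 10, 16, 9 and 5 from the lowest class to the highest. In the second-lowest class, 2 of 10 receptor genes had KMT9alpha, near the autosomal share of 23.3%, and 7 had no peak, against 42.4%. In the middle class, 9 of 16 receptor genes had no promoter peak, against 8.18% of autosomal genes in that class, and 4 of 16 had KMT9alpha, against 72.9%. In the class above, 3 of 9 had none, against 2.61%, and 3 had KMT9alpha, against 86.3%. In the highest class, all 5 receptor genes, among them Gabra5, Gabbr2, Grik3 and Grm4, had KMT9beta, against 97.8%, while 2 had KMT9alpha, against 92.9%.

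When the autosomal shares were weighted to the CpG classes of the receptor genes, those of each library were higher. The weighted shares were 64.5% for KMT9alpha, 78.4% for KMT9beta and 53.1% for H4K12me1, where the receptor genes had 26.8%, 48.8% and 31.7%. For genes without any peak the weighted share was 16.2%, against 27.1% unweighted, which is 6.65 of 41 genes, and 20 were counted. For KMT9beta with H4K12me1 and no KMT9alpha it was 8.46%, or 3.47 genes, and 5 were counted. Among the receptor genes themselves, the 21 with a promoter peak had a median ratio of 0.614 and the 20 without one 0.493.

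**Figure D5:**
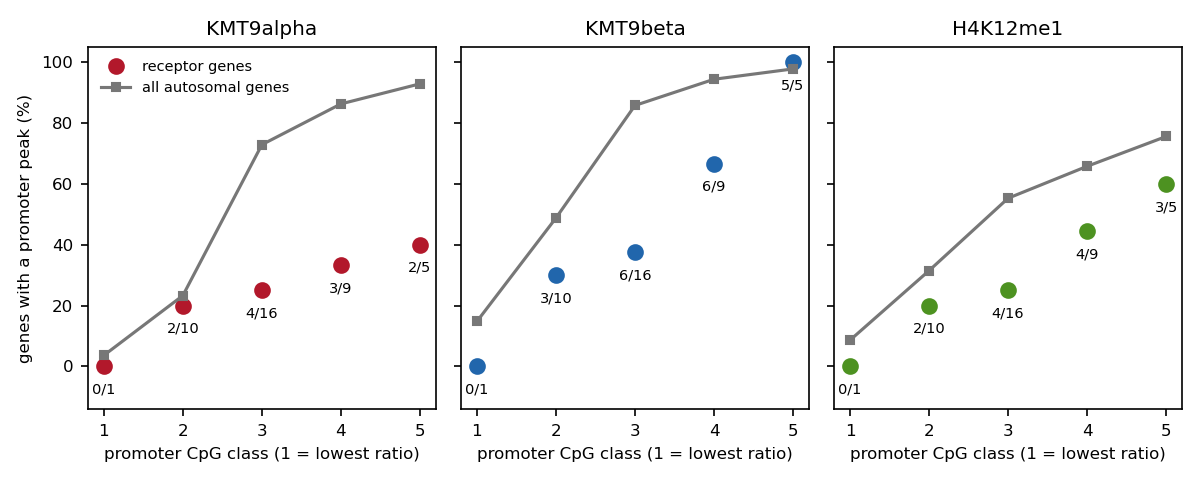
Percentage of genes with a promoter peak (vertical axis) in 5 classes of promoter CpG ratio (horizontal axis, 1 lowest), for receptor genes (coloured points with counts) and all autosomal genes (grey squares). Receptor genes lie below the grey line in classes 2, 3 and 4 of every panel, by little for KMT9alpha in class 2. In class 5 they lie below it for KMT9alpha and H4K12me1 but not for KMT9beta (5 of 5), and class 1 holds only 1 receptor gene.

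Within gene bodies, counting peaks that overlap the gene but none of its own promoters, receptor genes had peaks more often than other genes. KMT9beta was found in 33 of the 41 genes (80.5%), against 52.0% of autosomal genes, H4K12me1 in 26 (63.4%), against 43.1%, and KMT9alpha in 12 (29.3%), against 20.7%. Receptor genes are long, with a median of 121 kb against 17.6 kb. Among the 27 in the longest of 5 equal length classes, over 58.4 kb, 81.5% had KMT9beta, 63.0% H4K12me1 and 33.3% KMT9alpha. The autosomal genes of that class had 80.2%, 69.7% and 40.4%. In this class the higher share was thus not seen for H4K12me1 and KMT9alpha and was small for KMT9beta. The class runs to 4430 kb, and lengths were not matched within it. By density these 27 had 1.25 KMT9beta, 0.714 H4K12me1 and 0.149 KMT9alpha peaks per 100 kb, against 3.38, 2.18 and 0.603 over autosomal genes of that class. In the class from 25.3 to 58.4 kb, the 8 receptor genes had 7.22 KMT9beta, 4.92 H4K12me1 and 1.31 KMT9alpha peaks per 100 kb, against 6.69, 4.18 and 1.13. Of these 8, 87.5% had KMT9beta, 50.0% H4K12me1 and 37.5% KMT9alpha, against 64.9%, 53.8% and 25.4%. In the class from 12.1 to 25.3 kb, the 5 receptor genes had 12.1 KMT9beta and 8.07 H4K12me1 peaks per 100 kb, against 8.4 and 5.62, and 0 KMT9alpha peaks, against 1.57 per 100 kb. Of these 5, 80.0% had KMT9beta, 80.0% H4K12me1 and 0.0% KMT9alpha, against 56.8%, 46.0% and 19.7%.

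A few receptor genes held most of the 148 KMT9beta peaks. Grm4 had 23 in its body (23.2 per 100 kb), Gabbr2 20, Grik4 14, Grik5 12, Grik3 11 and Grin2d 10. By density Grin2c (22.1 per 100 kb), Grin2d (21.5), Grin1 (21.4) and Grik5 (19.2) stood beside Grm4, and all 5 of these are among the genes with a KMT9beta promoter peak. Of the 18 KMT9alpha body peaks, the pair with the highest scores lay at promoters of other genes: that of Kdelr1 inside Grin2d (3100) and that of Lrrc26 at the end of Grin1 (1523.32). The next was an intronic peak of Gabbr2 (319.85, chromosome 4, 46871125 to 46871899), a gene without KMT9alpha at its promoter. In Grik1, which had no promoter peak, KMT9alpha (279.3), KMT9beta (275.36) and H4K12me1 peaks overlapped in an intron 26.9 kb from the nearest start.

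The promoters were searched on both strands for both parts of the RE1 element, CAGCACC and GGACAG separated by any 2 bases. RE1 is the binding site of REST, a repressor known for keeping neuronal genes silent outside neurons. The element was found at 71 autosomal genes (0.343%), 3 of the 92 potassium channel genes (3.26%) and 0 of the 52 other signalling genes. Receptor genes had a median of 3.0 starts, against 2.0 over autosomal genes, so more starts were searched per gene. Among the 41 receptor genes it was found at 3 (7.32%), including Grin1. Of these 3, only the Grin1 match lay in a peak, that of KMT9beta (chromosome 2, 25318462 to 25319482, mm10). It is shown for that reason, with both parts in capitals, from chr2:25319018-25319032 on the minus strand, 77 bp downstream of a start.
Grin1: CAGCACCtcGGACAG
The full cyclic AMP response element, TGAC followed directly by GTCA, was found at 1 receptor gene, Gabbr1 (2.44%), against 4.93% of autosomal genes. A match does not show binding, and a gene without a match may hold a variant that these letters miss.

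Other genes of GABA and glutamate signalling carried peaks more often than the receptor genes. Of 52 genes for synthesis, transport, auxiliary subunits and scaffolds, 23 had KMT9alpha (44.2%), below the 55.8% of autosomal genes. KMT9beta was found at 40 (76.9%, against 68.3%) and H4K12me1 at 30 (57.7%, against 47.4%), and 9 had none (17.3%, against 27.1%). Their median CpG ratio was 0.616. Among genes of glutamate synthesis and breakdown, Glul, the glutamine synthetase gene, carried all 3 with KMT9alpha at 3100, Glud1 had both subunits (KMT9alpha 3100) and no H4K12me1, and so had Gls2 (KMT9alpha 181.23). For GABA, the synthesis gene Gad1 carried all 3 (KMT9alpha 239.69), while Gad2 and the GABA transaminase gene Abat had KMT9beta and H4K12me1 only.

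The combination of KMT9beta and H4K12me1 without KMT9alpha was also present outside the receptors. It was found at 10 of the 52 signalling genes (19.2%, 9.63 to 32.5), against 7.06% of autosomal genes. Among the 10 were Abat, Dlg4, Gad2, Shank3, Shisa9, Slc1a2, Slc1a6, Slc1a7 and Slc6a12. Of these, Slc1a2, Slc1a6 and Slc1a7 encode glutamate transporters, Slc6a12 a transporter that takes up GABA, and Dlg4 and Shank3 postsynaptic scaffolds. Among 92 potassium channel genes the combination was found at 17 (18.5%, 11.1 to 27.9). Of these 92, 31 had KMT9alpha (33.7%, against 55.8% of autosomal genes) and 67 had KMT9beta (72.8%, against 68.3%). H4K12me1 was found at 49 (53.3%, against 47.4%), and 17 had none (18.5%, against 27.1%). The median CpG ratio of the potassium channel genes was 0.531.

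Markers of the labelled tissue were looked at for the same promoters. Of 10 epithelial markers, 9 carried KMT9alpha and 8 all 3, among them Epcam and Cdh1 with KMT9alpha at 3100, and Krt20 had no promoter peak. Of 9 autosomal neuronal markers, 3 carried KMT9alpha and 1, Rbfox3, all 3, with KMT9alpha scores from 125.15 to 324.3. Of 9 autosomal glial markers, 4 carried KMT9alpha and 3 all 3, from 216.36 at Olig2 to 3100 at Mbp. Which cells the peaks at receptor genes come from was not tested.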

How the data were processed

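The authors deposited 1 peak list per antibody, giving for each peak a position and a score. Per the labels, reads were mapped to mm10 with STAR, and the submitters' processing notes name Bowtie2. Peak names begin with MACS. The sources used here do not give the caller's version, threshold and control, the tools' settings or the meaning of the deposited score, so scores were compared only within 1 list. The 26146 KMT9alpha, 90349 KMT9beta and 60289 H4K12me1 peaks on chromosomes 1 to 19, X and Y were used, and 81, 124 and 120 on unplaced sequences were left out.

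Genes and starts came from GENCODE M21 on GRCm38, the assembly behind mm10. Peak overlaps, CpG ratios over 1 kb either side of a start, motif matches and exact Clopper-Pearson 95% intervals were computed with Python 3.11.15 (scipy 1.17.1, pandas 2.3.3, numpy 2.4.6) and drawn with matplotlib 3.10.9. The promoter and gene body overlaps were tested on simulated peaks, and the CpG ratio on a made-up sequence. The other steps were not tested in this way. Receptor genes, gene lists and comparisons were chosen with earlier results of these data known. Every receptor gene is counted, and some items that the rules name are not reported here. Signalling genes are named when they carry KMT9beta and H4K12me1 without KMT9alpha (alphabetical, up to 10). The glutamate and GABA synthesis genes, the genes named within gene bodies and the markers with values were picked after their values were seen. With 1 library per antibody no test was run.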

Additional observations from a re-analysis of the deposited data

How the results depend on the processing

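Counts of receptor genes per combination were recomputed under other windows, starts, score limits and peak numbers. Of these counts, 47 stayed within 1.5 times the value reported and 16 moved beyond it. Fewer peaks or starts enter under most of these settings, and other causes were not tested. With only the most upstream start of each gene, KMT9alpha was found at 7 receptor genes (17.1%, against 53.0% of autosomal genes). All 3 were then found at 3 (7.32%, against 33.7%). With peaks at or above the median score of their list, KMT9alpha was found at 2 (Gabbr1 and Grin2d, 4.88% against 50.4%). KMT9beta was found at 13 (31.7%, against 60.0%), H4K12me1 at 6 (14.6%, against 32.6%) and all 3 at 1 (2.44%, against 24.3%). Both subunits without H4K12me1 were found at 1 (2.44%, against 22.0%) and KMT9alpha in the gene body at 3. With the same number of peaks from each list, KMT9beta was found at 10 (24.4%, against 50.6%) and H4K12me1 at 6 (14.6%, against 30.5%). KMT9beta with H4K12me1 and no KMT9alpha was found at 1 (Grin2c, 2.44% against 2.33%) and all 3 at 4 (9.76%, against 23.4%). Both subunits without H4K12me1 were found at 2 (4.88%, against 20.9%) and KMT9beta in the gene body at 17. No autosomal share is given for the gene body counts of these settings. Both subunits without H4K12me1 were found at 2 outside chromosomes 5 and 19, a setting that itself leaves out Gabra4 and Gabrb1. They were also found at 2 without peaks at another gene's promoter, a setting added after seeing the data, because Gabra4 and Gabrb1 share a peak. Genes without any promoter peak numbered 18 to 27 over all 8 settings, and none of these counts moved beyond 1.5 times. The 18 is from the setting without chromosomes 5 and 19, which has fewer receptor genes in all. The 27 is from peaks at or above the median score (65.9%, against 33.7% of autosomal genes). The median CpG ratio of the receptor genes was 0.614 with 500 bp and 0.406 with 2 kb either side, and no autosomal value is given for these windows.

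No paired analysis was possible because each antibody has 1 library and there is no other condition to pair it with. Depth is unknown, so a missing peak means only that none was called at these depths. Counts of 41 genes, some of them neighbours that share peaks, carry wide intervals.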

Other observations

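The 4 X-linked receptor genes carried no promoter peak of any library. Gabra3 had 1 peak of each library within the gene, and Gria3, Gabre and Gabrq had none there.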
